A study of Mus musculus with 2 samples.

Results

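Mir132 and Mir212 are neighbouring microRNA genes on mouse chromosome 11 that are known to be processed from a common primary transcript. They were identified by their Ensembl identifiers in GENCODE M21, ENSMUSG00000065537.2 for Mir132 and ENSMUSG00000065590.1 for Mir212, and make up 2 of the 2202 microRNA loci in the deposited count files. Small RNA below 30 nt had been sequenced from the left cerebral cortex of female mice aged 14 days. The animals were B6CASTF1/J, first-generation hybrids between C57BL/6J and a CAST line. As labelled, they form 1 group with 2 biological replicates, and no treatment, second genotype or other tissue is given, so the comparisons are between the members, with other loci and between the libraries. The label of replicate 1 mentions several females and that of replicate 2 a single female, and both carry the same donor record. The p-values below thus measure only the difference between these 2 libraries, which may partly be technical.

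A microRNA gene gives rise to a hairpin precursor, from which a 5p and a 3p mature strand of about equal length are cut. The mature strand guides an Argonaute complex to messenger RNAs, mainly through its seed, bases 2 to 8. In rodent neurons, transcription of the Mir212 and Mir132 precursor is known to be driven by the transcription factor CREB after synaptic activity and neurotrophin signalling. miR-132 is known for promoting dendrite growth. Loss or excess of miR-132 is known to disturb plasticity of the mouse visual cortex during early postnatal life. miR-212 is less studied and is usually treated together with its neighbour because of the common seed.

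The mature sequences are shown because the seed is what the members share. They are from RefSeq (GRCm38.p6, the build called mm10), written 5′ to 3′ with the seed in capitals.
mmu-miR-132-3p: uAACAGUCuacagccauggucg
mmu-miR-212-3p: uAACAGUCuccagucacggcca
mmu-miR-132-5p: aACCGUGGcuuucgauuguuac
mmu-miR-212-5p: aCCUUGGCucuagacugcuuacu
The 3p strands had the same seed, and their first 9 bases were identical. Over all 22 bases, 17 were identical. With positions counted from the 5′ end and the base of miR-132-3p given first, the differences were A10C, C14U, U17C, U20C and G22A, all of them outside the seed. The sequence that pairs with the common seed followed by an A, the strongest class of target site, reads GACUGUUA. The 5p strands had different seeds. Their best ungapped alignment set base 2 of miR-132-5p against base 1 of miR-212-5p, with 14 of 21 positions identical. Of the 1738 mature mouse sequences in the RefSeq table, which is not complete, only miR-132-3p and miR-212-3p carried the seed AACAGUC, and neither 5p seed occurred in any other sequence.

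The hairpins from which these strands are cut are shown with both mature strands in capitals. RefSeq and GENCODE M21 gave identical hairpin sequences for both genes.
Mir132 hairpin: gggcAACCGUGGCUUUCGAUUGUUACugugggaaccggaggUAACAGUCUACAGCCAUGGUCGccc
Mir212 hairpin: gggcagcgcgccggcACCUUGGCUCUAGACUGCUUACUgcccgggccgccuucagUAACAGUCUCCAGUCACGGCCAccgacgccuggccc
The Mir132 hairpin (mm10, chr11:75173682-75173747, plus strand) was 66 nt long and the Mir212 hairpin (chr11:75173388-75173478, plus strand) 91 nt. Their G+C content was 57.6% and 69.2%, against a median of 51.8% over the 389 detected loci, of which only 11 had a higher G+C content than Mir212. The minimum folding energy from RNAfold was −37.2 kcal/mol for Mir132 and −41.5 kcal/mol for Mir212. Per nt this was −0.564 and −0.456 kcal/mol, against a median of −0.434 over detected loci, and 28 detected loci had a lower value than Mir132 and 148 a lower value than Mir212. The longest identical stretch between the members' hairpins was 10 nt. Against any other annotated microRNA locus it was 11 nt for Mir132 and 12 nt for Mir212, on either strand. Neither member therefore shared a stretch of 20 nt with another microRNA locus, the length used here to mark loci whose reads may map to several of them. Both strands count for the mark, so it also falls on a locus that overlaps another on the opposite strand. In that case the mark does not by itself show that reads map to several places.

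Both hairpins lie in intron 1 of the non-coding transcript 1700016P03Rik (chr11:75172560-75177633, plus strand), which has 3 annotated exons. Mir212 starts 828 nt and Mir132 1122 nt after the annotated start of this transcript, so Mir212 comes first. The hairpins are separated by 203 nt, and 230 nt remain between Mir132 and exon 2. The protein-coding genes Hic1, a transcriptional repressor, and Ovca2 flank the hairpins on the minus strand, and Ovca2 overlaps the end of the host transcript but not the hairpins. No other microRNA locus is annotated nearby. The nearest on one side was Mir6926, 305 kb away, with 3 reads in each library. The nearest on the other side was Gm47300, 145 kb away, with 0 reads in either library.

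**Figure D1:**
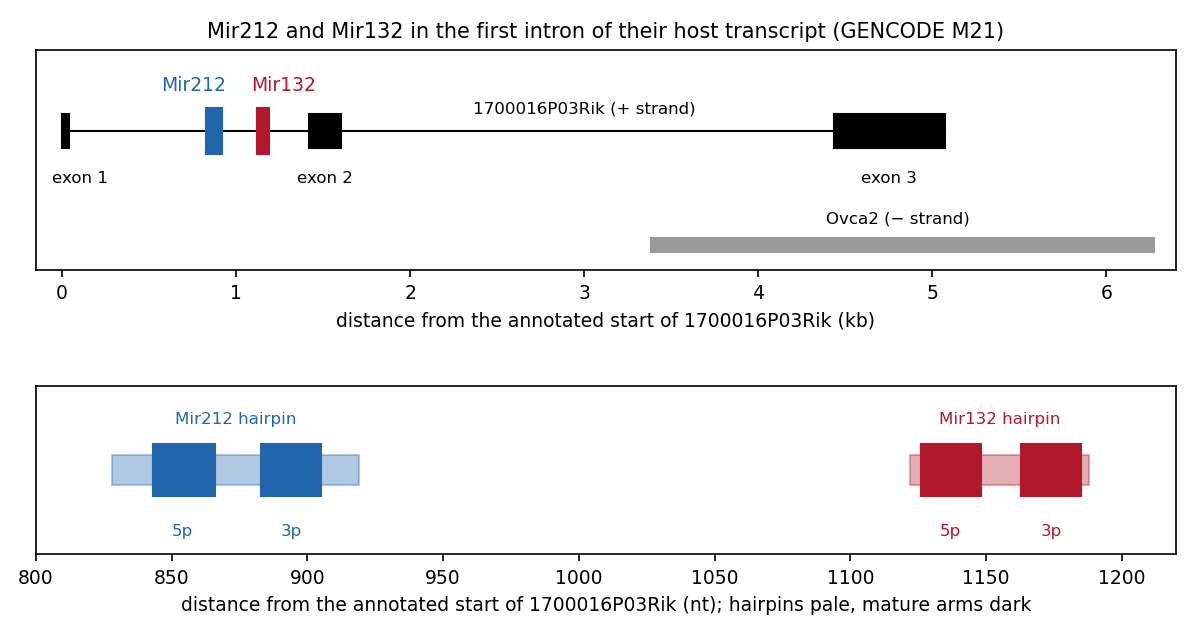
Map of the host transcript and of the hairpins, with distance from the annotated start of 1700016P03Rik in kb (upper panel) and in nt (lower panel). Mir212 and Mir132 both lie in intron 1, at 828 and 1122 nt from the start, with 203 nt between them.

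The first question was what share of the gene-assigned reads each member supplied. This is not the whole cortical microRNA pool, because reads mapped to several places were left out. Those numbered 3142330 in replicate 1 and 3645348 in replicate 2, more than the gene-assigned reads of either library. How many of them come from microRNA loci is unknown, so levels and ranks hold among gene-assigned reads only. By these reads Mir132 was among the most abundant loci and Mir212 was an ordinary detected locus, although both come from the same intron. Mir132 had 26822 reads in replicate 1 and 27038 in replicate 2. Scaled to 1000000 gene-assigned reads (CPM), this was 9788 CPM (exact Clopper-Pearson 95% interval 9672 to 9905) in replicate 1 and 8428 CPM (8329 to 8529) in replicate 2. Replicate 1 was the higher library for Mir132. Mir212 had 1106 reads in replicate 1 and 1761 in replicate 2, which was 404 CPM (380 to 428) and 549 CPM (524 to 575). For Mir212 replicate 2 was the higher library. No molecular identifiers are mentioned, so the intervals take in counting error and nothing else.

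The mean level was 9108 ± 961 CPM for Mir132 and 476 ± 103 CPM for Mir212 (SD, n = 2 libraries each), and the ranges of the members did not overlap. With TMM-scaled library totals, explained below, the means were nearly the same but the spread was not, at 9165 ± 1733 CPM for Mir132 and 473 ± 62.7 CPM for Mir212. Together they held 0.958 ± 0.0858% of gene-assigned reads. Mir132 ranked 22nd of 2202 loci in replicate 1 and 27th in replicate 2, and Mir212 ranked 144th and 136th. By mean level, 93.8% of the 389 detected loci (at least 10 reads in each library) were below Mir132 and 63.8% below Mir212. Both members passed this minimum. The median detected locus had 149 CPM.

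**Figure D2:**
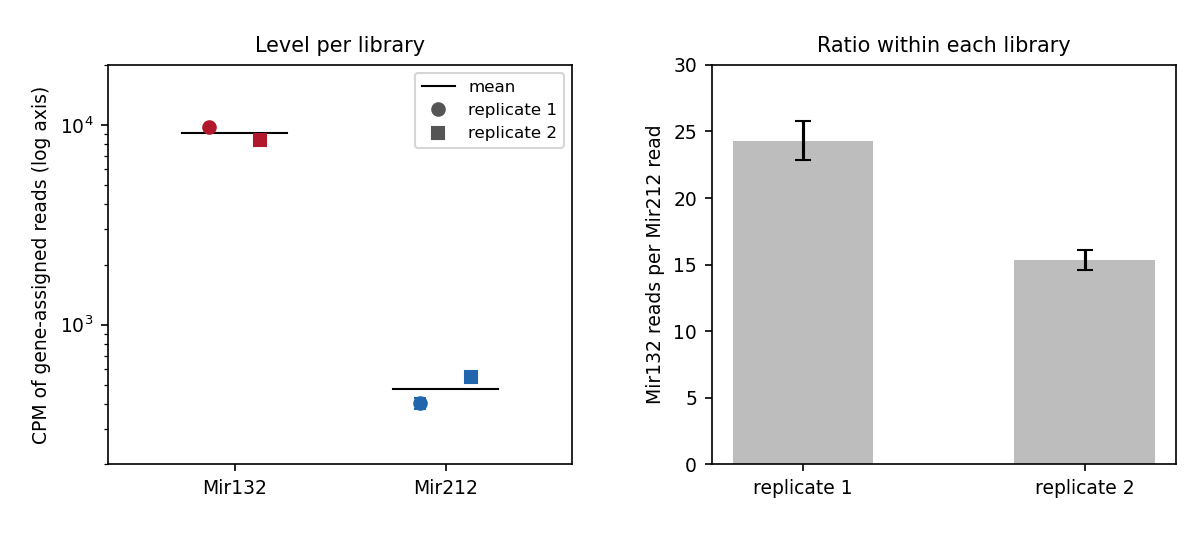
Left, CPM of Mir132 and Mir212 in each library on a log axis, with exact 95% counting intervals (mostly smaller than the points) and the mean as a line. Right, Mir132 reads per Mir212 read with exact 95% intervals, 24.3 in replicate 1 and 15.4 in replicate 2.

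In the order of mean levels, neighbours of the members were not separated beyond their spread. Mir132 stood between Mir324 (10050 ± 1411 CPM) and Mir342 (8924 ± 909 CPM). Mir212 stood between Mir877 (476 ± 157 CPM) and Mir376c (475 ± 4.49 CPM). Mir324 and Mir376c were named after their values were seen. On chromosome 11, which held 137 loci, Mir132 was the second most abundant in replicate 1 and the third in replicate 2, and Mir212 was the 12th in both. The pair supplied 20.5% and 15.8% of that chromosome's gene-assigned reads in replicates 1 and 2.

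The loci most like each member were found as the smallest distance in log2(CPM + 1) over the 2 libraries. For Mir132 these were Mir379, from the imprinted Dlk1-Dio3 region, with 9494 and 7649 CPM in replicates 1 and 2 (distance 0.15), Mir342 with 8281 and 9566 CPM (0.30) and Mir191 with 10080 and 10609 CPM (0.33). For Mir212 these were Mir665 with 428 and 584 CPM (0.12), Mir129-1 with 370 and 584 CPM (0.15) and Mir877 with 366 and 587 CPM (0.17). A likeness over 2 libraries describes the level and little else. Mir191 and Mir129-1 share a stretch of 20 nt with another locus, so their counts are uncertain.

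The second question was how unequal the members were within a library, a ratio that does not depend on the library total. Mir132 had 24.3 reads per Mir212 read in replicate 1 (exact 95% interval 22.8 to 25.8) and 15.4 in replicate 2 (14.6 to 16.1), a mean of 19.8 ± 6.29 (SD, n = 2). Mir132 thus made up 96.0% of the reads of the pair in replicate 1 and 93.9% in replicate 2. The mature strands are 22 or 23 nt long, so reads were compared without a correction for length. These are ratios of reads, and whether the members' sequences were recovered equally well was not tested. Divided by the length of the annotated hairpin, the level was 148 CPM per nt in replicate 1 and 128 in replicate 2 for Mir132, and 4.44 and 6.03 CPM per nt for Mir212. On that scale the ratio was 33.4 and 21.2. The counts are per gene and do not separate the 5p from the 3p strand, so the share of these reads that carries the common seed is unknown.

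The ratio differed between the libraries by more than counting error. The odds ratio of Mir132 to Mir212 reads, replicate 1 over replicate 2, was 1.58, or 0.66 on the log2 scale (two-sided Fisher's exact test on the reads of both loci, p = 6.7e-32). The test compares 2 libraries and says nothing about a condition, and its p-value covers counting only. Reads on the opposite strand numbered 0 at both loci in both libraries, which allows up to 3 reads each, and counting without regard to strand gave the same numbers of reads.

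The third question was whether the members moved together between the libraries. They did not: Mir132 was higher and Mir212 lower in replicate 1 than in replicate 2. With library sizes scaled by edgeR's trimmed mean of M values (TMM), the log2 ratio of replicate 1 over replicate 2 was 0.39 (95% counting interval 0.36 to 0.41) for Mir132. For Mir212 it was −0.27 (−0.38 to −0.16). By the exact binomial test (two-sided, p-values adjusted after Benjamini and Hochberg across detected loci), both differed (adjusted p = 3.4e-212 for Mir132 and 2.2e-06 for Mir212). So did 58.4% of the 389 detected loci, with 29.6% higher and 28.8% lower in replicate 1, so that 2 of 2 members past this test is near what most loci showed.

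In size, both ratios were close to or below that of the median detected locus. The SD of the log2 ratio over the detected loci was 0.70 and the median absolute ratio 0.40, both above the absolute ratio of either member. A smaller absolute ratio was found at 48.3% of detected loci for Mir132 and at 37.5% for Mir212. The common dispersion estimated with edgeR corresponded to a biological coefficient of variation of 31.7%, against a coefficient of variation of 18.9% for Mir132 and 13.3% for Mir212 on the same TMM scale. In plain CPM the order of the members was the reverse, with 10.6% for Mir132 and 21.6% for Mir212, so which member was the steadier depends on the scaling. Without TMM, scaling by library total alone moved the median log2 ratio of the detected loci to −0.16, against 0.0098 with TMM, and the loci past the test to 77 higher and 159 lower in replicate 1, against 115 higher and 112 lower with TMM. On that scale Mir132 was at 0.22 and Mir212 at −0.44, so the directions of the members held.

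**Figure D3:**
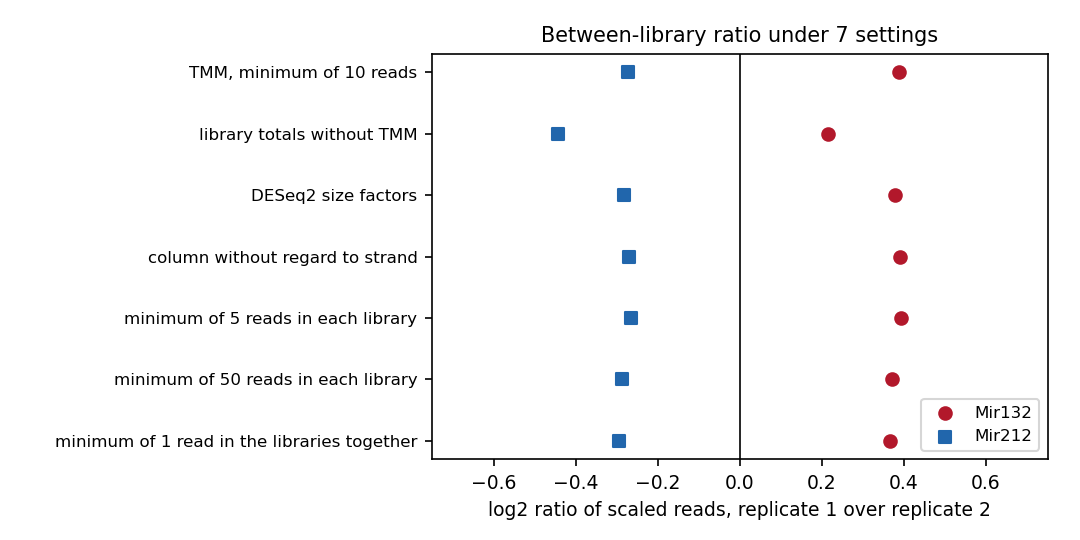
Log2 ratio of scaled reads, replicate 1 over replicate 2, for Mir132 (circles) and Mir212 (squares) under each of 7 settings for scaling, column and minimum count. Mir132 lies between 0.22 and 0.39 and Mir212 between −0.44 and −0.27, on opposite sides of 0 throughout.

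MicroRNAs that mark particular cell types were set beside this result, since in a whole tissue fewer cells of a type and less RNA per cell cannot be told apart. The neuron list (11 loci, 7 detected, none at 0 in both libraries) summed to 2.36% of the reads in replicate 1 and 3.41% in replicate 2. Its loci did not move together. Past the binomial test 2 were higher in replicate 1, Mir138-1 (log2 ratio 1.07) and Mir138-2 (0.61). Another 3 were lower, Mir128-1 (−1.32), Mir128-2 (−0.97) and Mir137 (−0.17). Over all 389 detected loci, 29.6% were higher and 28.8% lower past this test. Counts past it in such short lists thus tell little about a cell type. Of the 11 neuron loci 10 share a stretch of 20 nt with another locus, so their counts are uncertain. The oligodendrocyte list (3 of 3 detected) summed to 0.428% and 0.148%. Mir219a-2 (log2 ratio 2.14) and Mir338 (0.76) were higher in replicate 1 past the test, and Mir219a-1 (0.40) did not pass. The endothelial and mural list (3 of 5 detected, with Mir126b and Mir145b at 0) summed to 2.12% and 1.36%. Past the test 2 of its loci were higher and 1 lower in replicate 1. The microglial and leukocyte list (4 of 5 detected) summed to 0.156% and 0.189%, although 2 of its loci, Mir146 (0.58) and Mir155 (0.72), were higher in replicate 1 and 1, Mir150 (−0.87), was lower. The erythroid list (3 of 3) summed to 0.0976% and 0.0585%, and the choroid plexus list (1 of 2) to 0.0447% and 0.0899%. Of the erythroid loci only Mir451a (log2 ratio 1.00) passed the test, and Mir144 (−0.13) and Mir486 (0.36) did not. Other lists also held loci that share a stretch of 20 nt with another locus, and their counts may be uncertain too. These were 3 oligodendrocyte, 2 microglial and leukocyte, 2 endothelial and mural and 2 erythroid loci, with Mir146, Mir451a and Mir486 among them. Liver, muscle and epithelial lists summed to between 0.0042% and 0.0253% in a library, and 5 of the 9 muscle loci (Mir1a-1, Mir1a-2, Mir133a-1, Mir133a-2 and Mir133b) had 0 reads in both. The part of these cell types in the levels and ratios of Mir132 and Mir212 was not tested.

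**Figure D4:**
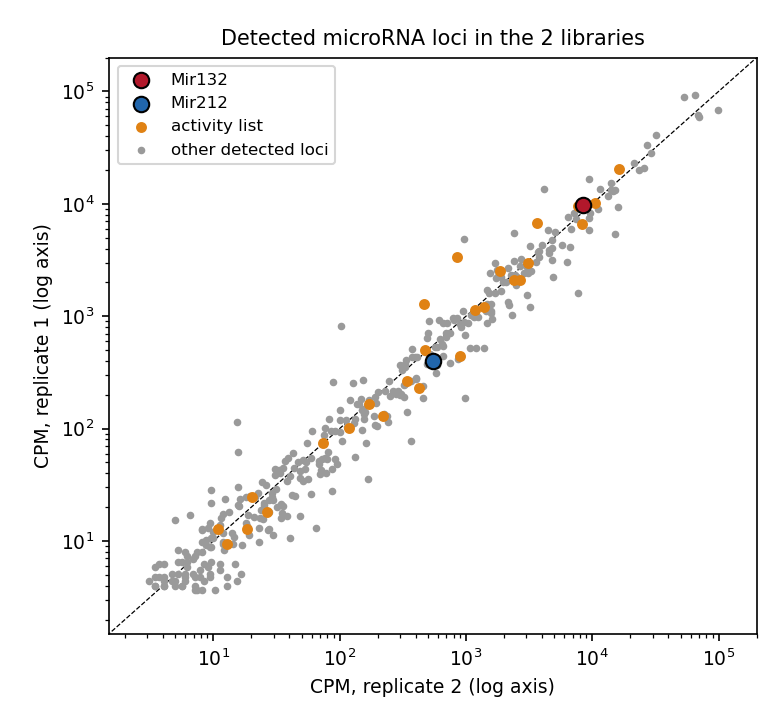
CPM of the 389 detected loci in replicate 1 (vertical) and replicate 2 (horizontal) on log axes, with equality dashed. Mir132 lies just above and Mir212 just below the dashed line, both closer to it than several loci of the activity list (orange).

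Among microRNAs described as regulated by neuronal activity, CREB, MEF2 or BDNF, Mir132 was near the top. The list held 31 loci, of which 26 were detected, and 2 of them lay above Mir132 and 15 above Mir212 in mean level. The 4 highest were Mir382 (18432 ± 2956 CPM), Mir191 (10344 ± 374 CPM), Mir379 (8572 ± 1304 CPM) and Mir137 (7452 ± 1255 CPM). Mir379 and Mir382 belong to the cluster in the Dlk1-Dio3 region that MEF2 is known to induce, and Mir137 is known from synapses. The values of the 2 libraries overlapped between Mir132 and Mir379, and not between Mir132 and Mir382, Mir191 or Mir137. Past the binomial test, 10 of the 26 detected loci were higher and 6 lower in replicate 1, and 10 did not pass. The 16 that passed are 16 of 26, against 58.4% of all detected loci. The median log2 ratio of the list was 0.11, against 0.0098 over all detected loci. Of the listed loci 12 share a stretch of 20 nt with another locus, among them all 3 loci of miR-124 and all 3 of miR-9, and their levels are uncertain. The activity list also holds loci of the neuron, oligodendrocyte and choroid plexus lists, among them Mir137, Mir138-1 and Mir138-2. Its counts are therefore not independent of those of the cell-type lists.

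The last question was whether so unequal and so shifting a pair is common among neighbouring microRNA genes. Each detected locus was paired with its next detected neighbour on the same strand where their starts lay within 1 kb, which gave 62 pairs, 25 of them on chromosome 12. Mir132 and Mir212 differed in mean level by 4.26 log2 units, a 19.1-fold difference, against a median of 2.34 log2 units over the pairs, and 13 pairs differed by more. The log2 ratio within the pair shifted between the libraries by 0.66, against a median absolute shift of 0.35 and a highest of 2.06, and 19 pairs shifted by more. By Fisher's exact test with Benjamini-Hochberg adjustment over the pairs, 64.5% of them had a ratio that differed between the libraries, Mir132 and Mir212 included (adjusted p = 3.0e-31). In 12 of the 62 pairs (19.4%) both loci passed the binomial test in opposite directions, Mir132 and Mir212 among them, and in 7 (11.3%) when library totals were used without TMM. Pairs share loci and libraries, and annotated closeness does not show that both loci come from the same transcript.

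Of the 62 pairs 17 had a mature strand with the same seed, and all 62 were in the sequence table. Among the other 16 of these, 6 shifted by more than Mir132 and Mir212 and 10 by less, and 4 differed more in level. The following pairs were named after their values were seen. Mir15b and Mir16-2 had 1196 and 259 reads in replicate 1 and 1270 and 276 in replicate 2, so their ratio hardly shifted (0.0051 on the log2 scale). Mir16-2 shares a stretch of 20 nt with another locus, so its counts are uncertain. Mir221 and Mir222, which like Mir132 and Mir212 share no stretch of 20 nt with another locus, had 8204 and 1206 reads in replicate 1 and 5423 and 2113 in replicate 2, a shift of 1.41. The largest shift, 2.06, was that of Mir34c and Mir34b, whose lower locus had only 15 and 25 reads. Among pairs with a common seed and no stretch of 20 nt shared with another locus, the smallest shift was 0.18, for Mir93 and Mir106b. The shifts of pairs with a common seed thus ranged widely, and that of Mir132 with Mir212 lay between the extremes. The smallest of these shifts rest on uncertain counts.

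**Figure D5:**
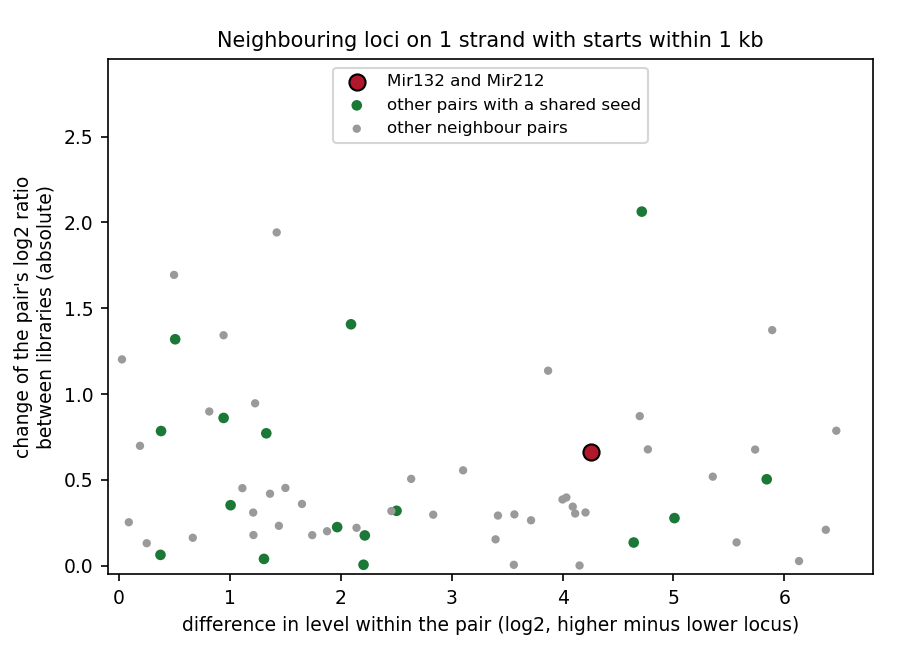
Each point is a pair of neighbouring detected loci on 1 strand with starts within 1 kb; horizontal, difference in mean level (log2); vertical, absolute change of the log2 ratio within the pair between the libraries. Mir132 and Mir212 (red) lie at 4.26 and 0.66, with 13 of the 62 pairs to their right and 19 above them; green points share a seed.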

How the data were processed

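Small RNA from 2 libraries of 1 group was analysed. The values are whole-number counts of reads for each microRNA gene, which the authors deposited unnormalized, on mm10 with GENCODE M21, per the accompanying file list; how reads were trimmed, aligned and counted is not given in the sources used here. Of 3 unnamed count columns, the third column of the file, read from its values as the RNA strand, was used. The 4 rows that name no gene (64.6% of 7745369 reads in replicate 1 and 66.7% of 9627908 in replicate 2, mostly unmapped or mapped to several places) were left out, which leaves 2740332 and 3207941 gene-assigned reads. The build is of C57BL/6J, and reads were not separated by parental genome.

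A count of 0 allows up to 3 reads (1.09 and 0.935 CPM). Scaling and dispersion used edgeR 4.0.16 and, as an alternative, DESeq2 1.42.0 size factors; exact tests used SciPy 1.17.1 and folding RNAfold 2.7.2. With 1 group, edgeR's quasi-likelihood test had no contrast. The threshold was an adjusted p of 0.05. The binomial and Fisher tests were tried on simulated counts with counting error only and library totals without TMM. That simulation does not cover variation between libraries beyond counting. The dispersion estimate was tried on simulated counts with a set variation.

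The members and lists were chosen with earlier results of these data known. Named loci were the members, loci with their seeds, the nearest locus on each side and the 3 most alike loci of each member. Up to 4 loci of the activity list were also named. Of the cell-type lists, sums and loci at 0 are given. In the neuron list and the microglial and leukocyte list, loci past the binomial test are named too, and in the oligodendrocyte and erythroid lists all loci. The adjustment of Fisher's test over neighbour pairs was added after seeing the data. No host promoter sequence was used here.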

Additional observations from a re-analysis of the deposited data

How the results depend on the processing

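The directions of the log2 ratios of Mir132 and Mir212 between the libraries, and their side of the threshold, were the same under library totals, DESeq2 size factors, the column without regard to strand and minimums of 5, 50 and 1 read (0.22 to 0.39 for Mir132, −0.44 to −0.27 for Mir212). Loci past the test numbered 211 to 240, against 227, but the number of loci tested changed as well. With a minimum of 50 reads in each library 211 of 283 loci passed, and with 5 reads 235 of 459. With 1 read in the libraries together 240 of 752 passed, against 227 of 389 in the main setting. The share of loci past the test thus depends on the minimum count. With all reads as the denominator the mean level was 3136 CPM for Mir132 and 163 CPM for Mir212, and with mapped reads 3933 and 206 CPM, since these denominators are larger. Without replicate 1 or without replicate 2, Mir132 was at 8428 and 9788 CPM, Mir212 at 549 and 404 CPM, and the ratio at 15.4 and 24.3. The SD of the level was 1684 CPM for Mir132 and 64.7 CPM for Mir212 with DESeq2 size factors, close to that with TMM. Per nt of hairpin the mean ratio was 27.3. With starts within 10 kb, 28 of 104 pairs differed more in level than Mir132 and Mir212 and 32 shifted more. Among loci without a shared stretch of 20 nt, an alternative chosen after seeing the data, 4 of 28 pairs differed more in level and 9 shifted more. These settings change the number of pairs; the cause of the changed shares was not tested. With 2 libraries no outlying library can be identified, and each SD rests on 2 values. No paired analysis was possible because there is only 1 group.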
